A study of Homo sapiens with 4 samples.

Results

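Genes whose promoters are often reported as hypermethylated in head and neck cancer were examined in FADU, an established human line of hypopharyngeal squamous carcinoma. The 10 genes were MGMT, DAPK1, RASSF1, RARB, KIF1A, EDNRB, HIC1, TIMP3, CDH13 and SFRP1, of 19881 protein-coding genes annotated. The series has 4 libraries, 1 for each of 4 conditions. Scrambled control cells and TET1-si cells, in which the DNA dioxygenase TET1 was knocked down by a lentiviral short hairpin RNA according to the methods, were each kept under normoxia or under hypoxia, at 1% oxygen for 18 h (scrambled control) or 19 h (TET1-si). The sample titles call the libraries hMeDIP-seq and the protocol in the labels names an antibody to 5-methylcytidine, whereas the methods of the study describe chemical labeling of 5hmC, so that the mark captured is uncertain. The deposited table holds 956365 windows of 500 bp. Its 4 columns of values have names that match no sample and were not used. The readout here is therefore whether a window is in the table, which belongs to the series as a whole and to no single condition. A window in the table does not show in which condition it had reads, and an absent window may still have had reads.

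The windows examined were those with a midpoint within 3000 bp on either side of the start site of the canonical transcript, 12 for each gene and 120 in all. Of these 120 windows, 64 were in the table.

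In CpG islands, stretches of DNA dense in CpG dinucleotides that cover many promoters, the cytosines are mostly unmethylated in normal cells. Methylation of such an island is known to go with silencing of the gene in tumors. TET enzymes oxidize 5mC to 5hmC as a step towards demethylation, and both marks lie mainly at CpG sites.

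The stretches shown here lie upstream of the start sites of 5 of the genes and carry no annotated exon of any transcript. They were chosen because they hold the contrast found among the 10 genes, namely CpG-dense sequence in the table, CpG-dense sequence absent from it, and CpG-poor sequence in the table. Each is 250 bases of GRCh37, read in the direction of transcription, with CpG sites in capitals. The stretches of MGMT (chr10:131265204-131265453, plus strand, 37 CpG sites), DAPK1 (chr9:90112346-90112595, plus strand, 19 CpG sites) and RARB (chr3:25469127-25469376, plus strand, 4 CpG sites) lie wholly in windows of the table. Of the KIF1A stretch (chr2:241759790-241760039, minus strand, 33 CpG sites), 211 bases lie in an absent window. Of the TIMP3 stretch (chr22:33197441-33197690, plus strand, 26 CpG sites), 190 bases lie in an absent window.
MGMT: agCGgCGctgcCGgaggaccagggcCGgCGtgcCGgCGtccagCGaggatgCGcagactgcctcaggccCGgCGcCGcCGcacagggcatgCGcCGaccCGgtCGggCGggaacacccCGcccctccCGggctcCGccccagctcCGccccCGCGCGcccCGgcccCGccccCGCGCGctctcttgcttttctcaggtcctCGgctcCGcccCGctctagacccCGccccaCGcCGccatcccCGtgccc
DAPK1: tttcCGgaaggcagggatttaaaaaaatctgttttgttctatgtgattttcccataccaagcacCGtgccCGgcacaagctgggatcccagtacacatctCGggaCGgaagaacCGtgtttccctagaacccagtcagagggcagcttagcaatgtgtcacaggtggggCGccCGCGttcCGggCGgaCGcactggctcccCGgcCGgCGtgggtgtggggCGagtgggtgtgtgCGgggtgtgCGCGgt
RARB: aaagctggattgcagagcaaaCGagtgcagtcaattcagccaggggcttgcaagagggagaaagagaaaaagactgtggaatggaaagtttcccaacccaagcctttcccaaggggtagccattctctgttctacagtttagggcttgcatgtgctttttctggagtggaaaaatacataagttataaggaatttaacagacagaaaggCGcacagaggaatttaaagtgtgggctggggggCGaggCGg
KIF1A: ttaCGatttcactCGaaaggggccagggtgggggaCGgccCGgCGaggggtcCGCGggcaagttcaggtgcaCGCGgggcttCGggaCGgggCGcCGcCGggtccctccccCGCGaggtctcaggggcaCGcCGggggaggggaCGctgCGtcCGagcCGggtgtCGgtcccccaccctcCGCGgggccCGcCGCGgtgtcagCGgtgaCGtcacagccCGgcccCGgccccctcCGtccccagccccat
TIMP3: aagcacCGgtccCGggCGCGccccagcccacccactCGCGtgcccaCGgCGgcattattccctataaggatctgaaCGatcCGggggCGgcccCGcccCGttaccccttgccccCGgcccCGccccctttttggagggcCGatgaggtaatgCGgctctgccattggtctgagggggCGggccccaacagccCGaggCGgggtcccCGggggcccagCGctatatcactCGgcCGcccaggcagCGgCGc

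Around the 10 start sites, 53.3% of the windows were in the table (64 of 120, 95% Wilson interval 44.4% to 62.0%). Around the start sites of all protein-coding genes the share was 38.0% (82419 of 217078 windows). Wilson intervals cover counting only and treat windows as independent, although neighboring windows share fragments. Since CpG-rich windows enter the table at other rates than CpG-poor ones, a number of listed windows was predicted from autosomal windows with the same CpG number and GC content. The prediction for the 10 genes was 39.7 windows, so that the observed number was 1.61 times the predicted one. The ratio was 1.27 for all protein-coding genes. When the prediction was made only from windows around start sites, the ratio for the 10 genes was 1.30. With a prediction from the same chromosome it was 1.53.

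The genes differed widely among themselves. DAPK1 and RARB each had 10 of 12 windows in the table, CDH13, RASSF1 and TIMP3 had 7, HIC1, MGMT and SFRP1 had 6, KIF1A had 3 and EDNRB had 2. The median was 6.5 windows, beside a median of 4 and quartiles of 2 and 7 over the 19848 genes with 12 windows. As many as 10 windows were found for 9.56% of all genes, and 2 or more for 76.8%. Of the 10 genes, 8 had more windows than predicted, all but KIF1A and EDNRB, beside 59.8% of all genes. With the prediction from windows around start sites the number was 7, beside 46.3% of all genes, as RASSF1 was then at 0.993 of the prediction. MGMT and SFRP1 were then at 1.03 and 1.02.

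**Figure D1:**
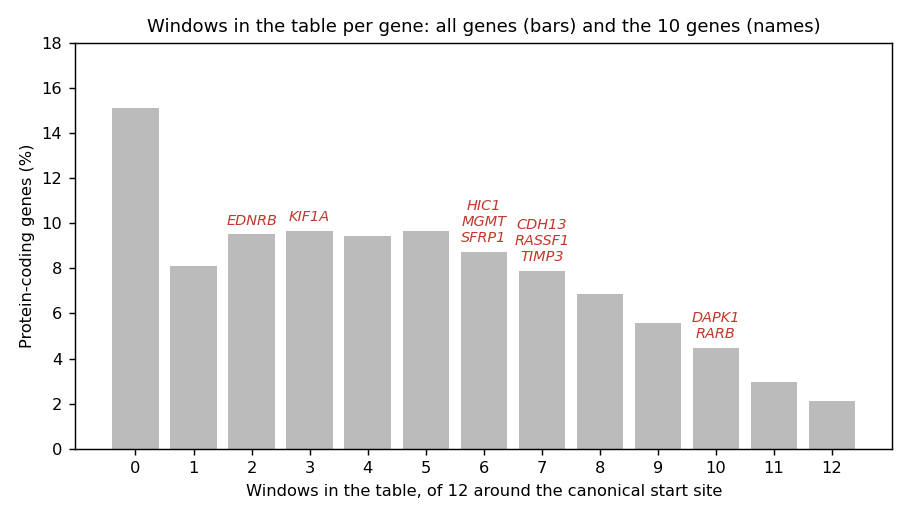
Windows in the table, of 12 within 3000 bp of the canonical start site (x axis), against the share of 19848 protein-coding genes in percent (bars, y axis), with the names of the 10 genes above the bar they belong to. DAPK1 and RARB stand at 10 windows, KIF1A and EDNRB at 3 and 2, and the other 6 genes at 6 or 7, above the median of 4.

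**Figure D2:**
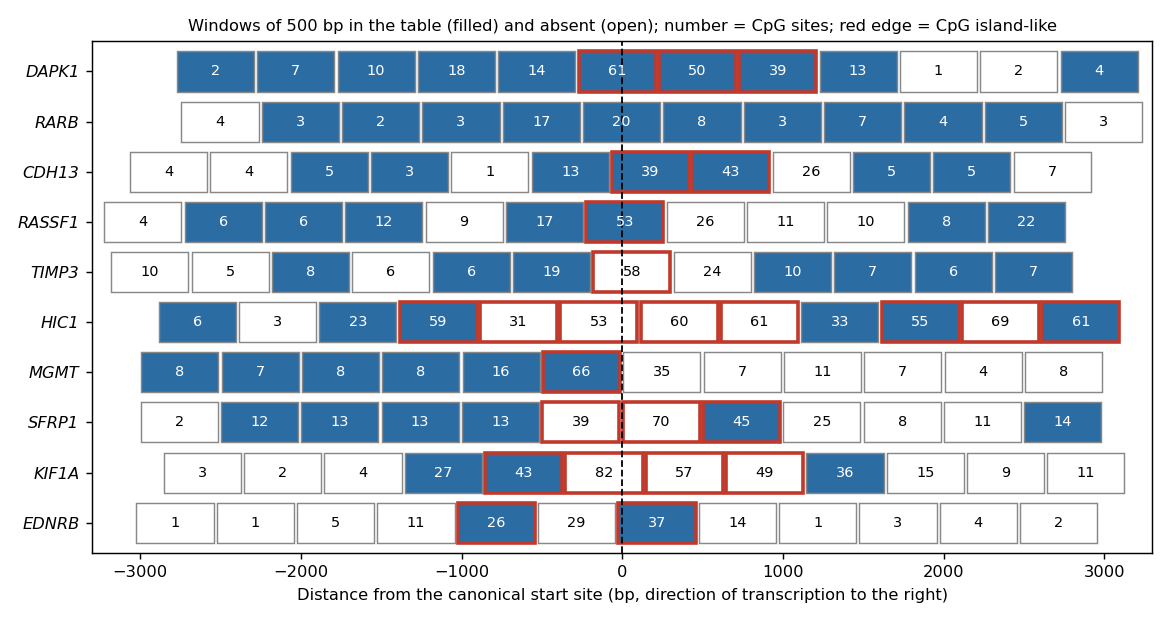
Each box is a 500 bp window placed by its distance in bp from the canonical start site (x axis), for each gene (y axis). Filled boxes are in the table, open boxes are absent, the number is the count of CpG sites and a red edge marks a CpG island-like window. DAPK1 is filled across its 3 island-like windows, MGMT is filled only upstream of the start site, and the CpG-densest window is open in KIF1A, HIC1, TIMP3 and SFRP1.

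MGMT encodes the methyltransferase that removes alkyl groups from guanine in DNA, and its promoter methylation is used as a clinical marker for alkylating drugs. Its start site divided listed from absent windows. The canonical transcript starts at position 131265505 on the plus strand of chromosome 10. All 6 windows upstream of the start site were in the table and none of the 6 downstream. The last window upstream, from 131265001 to 131265500, has 66 CpG sites and a predicted share of 17.4%, and was in the table. The next window, which holds the start site, has 35 CpG sites and a predicted share of 48.3%, and was absent. The order of the 2 windows was thus opposite to that of their predictions. The upstream run extended over 7 windows (3500 bp), from 131262001. The start of another transcript, at 131265454, lies in the listed window. Windows in the rest of the gene were at 0.762 of the predicted number (143 of 601), and those of the surrounding 1 Mb at 0.401, the lowest of the 10 regions. Of the absent windows, 3 contain repeated sequence, with 84.9%, 89.1% and 99.8% of their 50-base sequences unique.

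DAPK1 encodes a calcium/calmodulin-regulated kinase that promotes cell death. Its canonical transcript starts at 90112782 on the plus strand of chromosome 9. Its 10 windows compare with 2.78 predicted, a ratio of 3.59. A run of 9 windows (4500 bp) from 90110001 to 90114500 covered the start site on both sides. The run included 3 CpG island-like windows with 61, 50 and 39 CpG sites, whose predicted shares were 17.4%, 32.4% and 38.5%. A window was called CpG island-like at a GC content of at least 55% and an observed over expected CpG number of at least 0.65. Absent from the table were 2 windows with 1 and 2 CpG sites. The rest of the gene was at 1.42 of the predicted number (152 of 415 windows) and the surrounding 1 Mb at 1.08. The 4 windows that hold a start of a DAPK1 protein-coding transcript were all in the table, within this same run of 9 windows.

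RASSF1 encodes a scaffold protein with a Ras association domain, and its canonical transcript starts at 50378267 on the minus strand of chromosome 3. Its 7 windows compare with 5.83 predicted. The start window, with 53 CpG sites and a predicted share of 32.4%, was in the table. Upstream, where the region lies in the neighboring genes ZMYND10 and ZMYND10-AS1, 4 of 6 windows were in the table. The 3 windows directly downstream, with 26, 11 and 10 CpG sites, were absent. A start farther downstream, at 50374895, gave the opposite result, since the window that holds it, from 50374501 to 50375000, has 62 CpG sites and a predicted share of 36.9% and was absent.

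RARB encodes a nuclear receptor for retinoic acid. Its canonical transcript starts at 25469754 on the plus strand of chromosome 3, and its region is the CpG-poorest of the 10, with 2 to 20 CpG sites in a window and no CpG island-like window. Its 10 windows compare with 2.24 predicted, a ratio of 4.47, and with 3.71 predicted from windows around start sites, a ratio of 2.70. Both ratios were the highest of the 10 genes. The 10 windows formed a single run of 5000 bp from 25467501 to 25472500, and 5 of them had under 5 CpG sites. The share of the surrounding 1 Mb was 9.86% (196 of 1988 windows), beside 17.6% of all autosomal windows, and 0.786 of the predicted number. The rest of the gene was at 1.12 (69 of 333 windows). All 6 windows that hold a start of a RARB protein-coding transcript were in the table. They include 2 windows far upstream, one from 24729001 with 8 CpG sites and a CpG island-like one from 24870501 with 45 CpG sites. Those next to the canonical start site belong to the run above, so that they are already counted there. A window farther downstream, from 25499501, has 4 CpG sites. The predicted shares of these start windows ranged from 7.58% to 46.8%. Such a count was not made over all genes.

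EDNRB, the endothelin receptor type B gene, and KIF1A, which encodes a kinesin motor of axonal transport, had fewer windows than predicted from autosomal windows. The canonical transcript of EDNRB starts at 78492966 on the minus strand of chromosome 13. Its 2 windows in the table (2.80 predicted) were the 2 CpG island-like windows of the region, the start window with 37 CpG sites and a window upstream with 26 CpG sites, which holds starts of other EDNRB transcripts. The window between them, with 29 CpG sites, was absent, as were all 8 windows with 11 or fewer CpG sites and the window with 14. The surrounding 1 Mb was sparse as well, with 4.88% of windows in the table and a ratio of 0.495. Chromosome 13 as a whole was at 0.751 of the predicted number, near the 0.715 of EDNRB around its start site.

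The canonical transcript of KIF1A starts at 241759636 on the minus strand of chromosome 2. The start window is the CpG-densest of all 120, with 82 CpG sites, 81.0% GC and a predicted share of 5.18%, and was absent. So were the next 2 windows downstream, with 57 and 49 CpG sites. The 3 windows in the table lay at the margins of this CpG-dense stretch, with 43 and 27 CpG sites upstream and 36 downstream. The windows farther out were absent on both sides, although those downstream had predicted shares from 61.7% to 71.4%. Of the 15 windows that hold a start of a KIF1A protein-coding transcript, 5 were in the table. The ratio was 0.697 around the start site, 0.719 in the rest of the gene and 0.965 in the surrounding 1 Mb. Chromosome 2 as a whole was at 0.674. The ratio around the start site was thus near that of the chromosome but below that of the surrounding 1 Mb.

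HIC1 encodes a zinc finger repressor of transcription. Its canonical transcript, on chromosome 17, starts at 1958397 on the plus strand, in the region with the most CpG sites (a mean of 42.8 in a window) and the most CpG island-like windows, 8 of 12. Of these 8 windows, 3 were in the table. The start window (53 CpG sites) was absent with its neighbors on both sides, 4 windows in all from 1957501 to 1959500. The upstream window with 59 CpG sites, which holds the start of another transcript, was in the table, and so was a downstream window with 33 CpG sites that holds further starts. Listing in this gene followed no simple order of CpG number, since windows with 55 and 61 CpG sites, centered in exons, were in the table and one with 69 between them was absent. In 2 windows at the upstream end, only 37.9% and 28.2% of the 50-base sequences were unique, and the first of them was in the table. The surrounding 1 Mb had 49.8% of its windows in the table, the highest of the 10 regions (ratio 1.32).

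TIMP3 encodes an inhibitor of matrix metalloproteinases and lies within SYN3. The transcript starts at 33197691 on the plus strand of chromosome 22. The start window, with 58 CpG sites and a predicted share of 17.4%, and the next window, with 24 CpG sites and a predicted share of 64.6%, were absent. Listed windows lay on both sides of this gap, with 19 CpG sites or fewer. TIMP3 was the only one of the 9 genes with a CpG island-like window that had none in the table. The ratio was 1.53 around the start site against 0.554 in the rest of the gene (17 of 117 windows) and 0.657 in the surrounding 1 Mb. Chromosome 22 as a whole was at 1.35, however. With the prediction from windows around start sites, the ratio of TIMP3 was 1.19.

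CDH13 encodes a cadherin without a transmembrane domain. The canonical transcript starts at 82660574 on the plus strand of chromosome 16. Both CpG island-like windows, with 39 and 43 CpG sites, were in the table, the first of which holds the start site. The ratio was 2.00 around the start site (7 windows, 3.50 predicted), 0.772 in the rest of the gene (348 of 2341 windows) and 0.831 in the surrounding 1 Mb. Chromosome 16 as a whole was at 1.27. With the prediction from windows around start sites, the ratio of CDH13 was 1.54.

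SFRP1 encodes a secreted antagonist of Wnt signaling. Its start site is at 41166992 on the minus strand of chromosome 8. The start window, with 70 CpG sites and a predicted share of 17.4%, was absent, as was the window upstream of it, with 39 CpG sites. Farther upstream, 4 consecutive windows with 12 or 13 CpG sites each were in the table. Downstream, the CpG island-like window with 45 CpG sites was in the table. The ratio of 1.19 was close to that of the rest of the gene (1.21) and of the surrounding 1 Mb (1.22). Chromosome 8 as a whole was at 1.30.

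**Figure D3:**
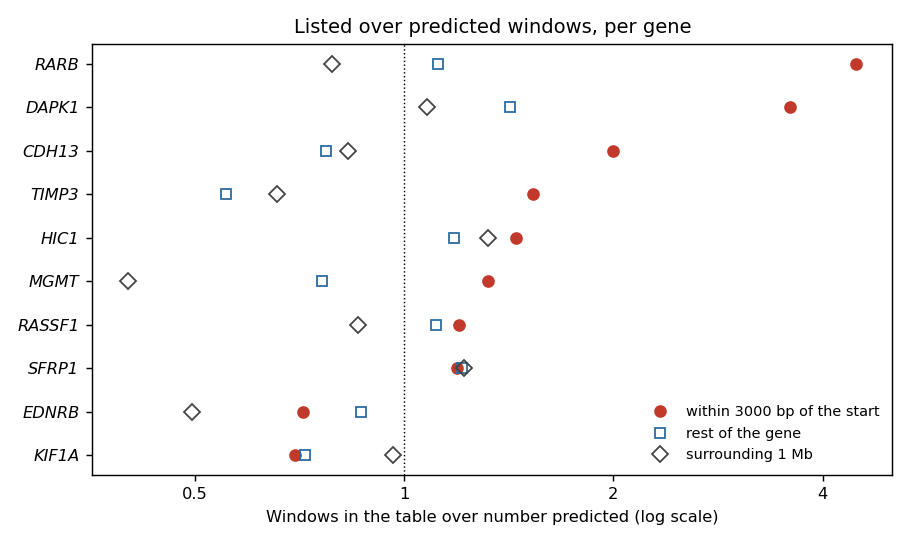
Number of windows in the table over the number predicted from CpG number and GC content (x axis, log scale) for each gene (y axis), within 3000 bp of the start site (filled circles), in the rest of the gene (squares) and in the surrounding 1 Mb (diamonds). RARB (4.47), DAPK1 (3.59) and MGMT (1.32) lie far to the right of their surrounding 1 Mb (0.786, 1.08 and 0.401). CDH13 and TIMP3 lie to the right of theirs as well, whereas the values of SFRP1 lie together between 1.19 and 1.22.

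Over the 10 genes together, the rest of the gene was at 0.865 of the predicted number (860 of 4171 windows, 20.6%). CDH13 alone holds 2341 of these 4171 windows, at a ratio of 0.772, so that the pooled value rests largely on it. By gene, the ratio in the rest of the gene ranged from 0.554 (TIMP3) to 1.42 (DAPK1). It was above 1 in DAPK1, SFRP1, HIC1, RARB and RASSF1 and below 1 in the others. The surrounding 1 Mb was at 0.910 (4563 of 19880 windows), but the surrounding 200 kb at 1.03. Around the start site the ratio was higher than in the 1 Mb around the same gene for 8 genes, beside 55.1% of all genes. The exceptions were KIF1A (0.697 against 0.965) and SFRP1 (1.19 against 1.22). The share of windows in the table varied from 4.88% to 49.8% between these 10 regions, beside 17.6% of all autosomal windows. The part of regional copy number in this variation was not tested. Values for the rest of the gene were not computed over all genes.

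The share of CpG island-like windows in the table was higher for the 10 genes than for all genes. Of their 25 CpG island-like windows, 14 were in the table (56.0%, Wilson interval 37.1% to 73.3%), beside 28.5% of such windows around all start sites (7643 of 26840). The number was 1.97 times the predicted one, and 2.20 times the number predicted from windows around start sites. For all genes the ratio was 0.847. Of the other 95 windows, 50 were in the table (52.6%), beside 39.3% for all genes. Of the 9 genes with a CpG island-like window, 8 had at least 1 in the table, beside 39.9% of 13860 genes. The 10 genes are no random draw and windows of a gene are neighbors, so that these differences have no test. At looser thresholds (50% GC and 0.6 observed over expected CpG), 16 of 31 CpG island-like windows of the 10 genes were in the table (51.6%). For all genes the share at these thresholds was not computed.

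Listed windows of the 10 genes had a median of 12.5 CpG sites (mean 19.0) and absent windows a median of 8.50 (mean 18.2). With under 5 CpG sites, 8 of 28 windows were in the table, and these belonged to DAPK1, RARB and CDH13 only. The share was 28.6%, beside 18.4% for all genes. With 40 or more CpG sites, 10 of 19 windows were in the table, from 7 of the genes. For all genes the share with 40 or more CpG sites was 24.7%. GC content moved with absence at the upper end. Of the 9 windows with at least 75% GC, 2 were in the table, those of MGMT and DAPK1, beside 632 of 4511 such windows for all genes. Of the 9 windows with 70% to 75% GC, 7 were in the table, beside 1958 of 6753. The part of GC content in the recovery of reads was not tested beyond the prediction. Uniqueness of sequence differed little, as 48 of the 56 absent windows and 58 of the 64 listed ones consisted of 50-base sequences that each occur at 1 place in the genome by exact match.

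Of the 10 windows that hold the canonical start site, 5 were in the table, those of DAPK1, RASSF1, RARB, EDNRB and CDH13, beside 26.7% for all genes (5296 of 19862). The 5 absent start windows were those of MGMT, KIF1A, HIC1, TIMP3 and SFRP1. Their CpG numbers overlapped, with 20 to 61 sites in the listed and 35 to 82 in the absent windows. With the 5-prime end of the gene as the start site, 6 were in the table. MGMT and HIC1 were then listed and EDNRB was absent, so that these calls depend on the start site chosen. Over the starts of all protein-coding transcripts of the 10 genes, 23 of 42 windows were in the table, with none for SFRP1 and TIMP3. That share was not computed for all genes. Upstream of the canonical start sites 37 of 60 windows were in the table (61.7%) and downstream 27 of 60 (45.0%), while the 2 sides were alike for all genes (38.4% and 37.8%). The highest shares, 8 of 10 windows in each of 2 bins, were found from 2000 to 1000 bp upstream, where all genes had 38.0% and 43.4%. From 1000 to 3000 bp downstream the share of the 10 genes was 45.0%, near the 41.2% of all genes. MGMT, with 6 windows upstream and 0 downstream, accounts for 6 of the 10 windows by which the sides differ.

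**Figure D4:**
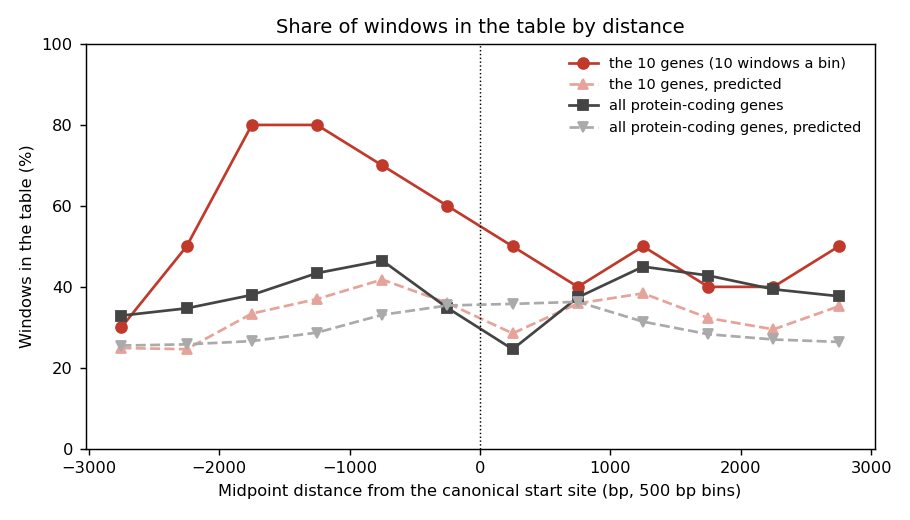
Share of windows in the table in percent (y axis) by distance of the window midpoint from the canonical start site in bp (x axis, bins of 500 bp), for the 10 genes (red, 10 windows in each bin) and all protein-coding genes (black), with the predicted shares (dashed). The 10 genes reach 80.0% from 2000 to 1000 bp upstream and are at or below 50.0% downstream, whereas all genes have their lowest share, 24.6%, just downstream of the start site.

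The same windows were counted in 3 further lists. Of 18 other genes often reported as methylated in squamous or other carcinomas, 41.7% of the windows were in the table (ratio 1.37), with 21 of 45 CpG island-like windows (46.7%). Of 20 family relatives of the 10 genes, such as DAPK2, RARA, TIMP2 and SFRP2, 52.9% of the windows were in the table (ratio 1.49), with 20 of 40 CpG island-like windows. The relatives SFRP2, SFRP4 and SFRP5 are in both lists. The 10 housekeeping genes, among them GAPDH, ACTB and TBP, had 39.2% of their windows in the table (ratio 1.19). None of their 23 CpG island-like windows was in the table, which gives a Wilson interval up to 14.3%, and none of their 10 start windows. Of the start windows, 5 of 18 were in the table for the other methylated genes and 9 of 20 for the relatives. The start windows of the housekeeping genes had a mean of 50.1 CpG sites, against 50.8 for the 10 genes. Outside CpG island-like windows the housekeeping genes had 48.5% of windows in the table, near the 52.6% of the 10 genes. The share of the relatives, 52.9%, lies within the Wilson interval of the 10 genes, and the shares of CpG island-like windows of these 2 lists and of the other methylated genes have overlapping intervals, so that no value here is called particular to the 10 genes. In these lists, DCC and HIC2 had none of 12 windows in the table and no gene had all 12.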

How the data were processed

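Genomic DNA of FADU cells was captured and sequenced by the authors as 50 bp single-end reads, with 1 library for each of 4 conditions. Per the labels and the study's methods, the authors mapped reads to hg19 with Bowtie 0.12.7, kept unique and monoclonal reads and counted them in 500 bp windows with MEDIPS. From the deposited table only the window positions were used. Its 4 value columns match no sample label and were left out, so that depth and all condition contrasts are not analysed here. How windows were selected for the table was not tested. The genes and lists were chosen with earlier results of these data known.

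Windows were laid on GRCh37, whose numbering equals that of hg19 on chromosomes 1 to 22, X and Y. Start sites were those of canonical transcripts in GENCODE version 44 lifted to GRCh37. Values for all protein-coding genes include genes on chromosomes X and Y. CpG sites were counted if wholly inside a window. The predicted share was that of autosomal windows without undetermined bases of the same CpG number (40 or more as 1 class) and GC content (steps of 25 bases). The arithmetic was checked on simulated windows drawn independently from these same shares. That check does not cover dependence between neighboring windows or differences between regions and chromosomes. Regions of 1 Mb were centered on the start site, without its own 12 windows. The rest of a gene began 3000 bp downstream of the start. All 451 sequences of 50 bases in each window were searched in the chromosomes on both strands, allowing no mismatch. All results are descriptions without tests between conditions. The genes named were the 10 chosen, and in the lists those with all or none of their windows in the table. A few list members were given as examples or because they lie on chromosome X. Alternatives were other distances, start sites, overlaps, predictions, island thresholds and flanks. Python 3.11.15, NumPy 2.4.6, SciPy 1.17.1, pandas 2.3.3 and Matplotlib 3.10.9 were used.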

Additional observations from a re-analysis of the deposited data

How the results depend on the processing

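No paired analysis was possible because the columns carry no replicate numbers and none could be assigned to one of the 4 single libraries. The planned scaling by column totals, meant for columns mapped to samples, was not run, because columns that match no sample label were not used. Of 22 values under alternative settings, 17 stayed within the Wilson interval of the reported share or ratio, or within 1.5 times the reported count. The observed over predicted number of windows around the start sites, 1.61, was 1.30 with the prediction from windows around start sites and 3.03 against the share of all autosomal windows, which takes no account of base composition. It was 1.85 with the prediction scaled to the 1 Mb around each gene, an alternative chosen after seeing the data, and stayed above 1 under each alternative run. The number of listed windows fell from 64 to 35 within 1500 bp, where fewer windows were counted, and the share was then 58.3%. Counting both neighbors with the start windows gave 16 instead of 5, out of more windows. For the flanks, the ratio was 0.910 in 1 Mb and turned to 1.03 in 200 kb. The cause was not tested. Depth of the libraries is unknown here and limits what an absent window means.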
